A study of Arvicanthis niloticus with 59 samples.

Results

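Expression of 9 genes of fat storage and fat cell hormones was followed across organs of a diurnal rodent, Arvicanthis niloticus, known as the Nile grass rat. The genes were taken by name, and all 9 of them were found among the 18970 genes of the tables: the secreted products Lep, Adipoq, Retn and Cfd, the lipid droplet coat genes Plin1 and Cidec, and the lipases Lpl, Lipe and Pnpla2. Polyadenylated RNA was sequenced from tissue biopsies, giving 59 libraries that represent 48 sites and 22 organs, and 4 animals supplied them. Animal T3F gave 38 libraries, T173F 12, T426 8 and T424 a single testis library. Every library carries the label of healthy tissue without treatment, and no strain, age or genotype was used here. The labels name 4 adipose libraries, those of brown fat and inguinal fat from T3F and those of mesentery and adrenal gland fat from T173F, so each depot was sampled once and its values have no replicate. All levels are TPM, transcript abundance scaled for gene length and library size, which allows levels of different genes to be compared. Depth differed widely, from 678819 expected counts in testis to 41309569 in the deepest library (median 16406604), and the 8 libraries of T426 held 1691561 to 3827321.

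White fat cells store triglyceride in a droplet that fills the cell, and brown fat cells hold many small droplets and burn their fat for heat. Both take up fatty acids that lipoprotein lipase, the product of Lpl, frees from blood lipoproteins, and both release them again through the lipases encoded by Pnpla2 and Lipe, with Plin1 on the droplet surface controlling access. White fat is also an endocrine organ: it secretes leptin, which reports the size of the fat store to the brain, and adiponectin, which acts on insulin sensitivity.

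Some libraries went against their labels, or held markers of another cell type, in ways that touch these genes. The library labelled liver T3F had the lung surfactant gene Sftpc at 23826 TPM and albumin, Alb, at 398.3 TPM, against 54236 TPM of Alb in liver T426. The library labelled lung T3F had Alb at 71562 TPM and Sftpc at 3.85 TPM. The pancreas library of T173F had Ucp1, the uncoupling protein of brown fat, at 155.8 TPM, with 2 of the 5 brown fat markers, Elovl3 and Ppargc1a, at 0. The 4 adipose libraries carried all 8 fat cell markers on a list that holds none of the 9 genes, with a summed level of 35545 to 47928 TPM. The sum was 1237 to 4854 TPM in striated muscle, 237.9 to 578 in steroid-making organs, and 26.1 to 26091, with a median of 454, in the 47 other libraries. The renal artery of T3F was the highest of these 47, with all 8 markers present. The adipose library labelled adrenal gland also had Star and Cyp11b1, genes of adrenal steroid synthesis, at 2547 and 2949 TPM, compared with 10796 and 14917 TPM in the adrenal gland itself. In bulk tissue, fewer fat cells and less RNA per fat cell cannot be told apart.

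**Figure D1:**
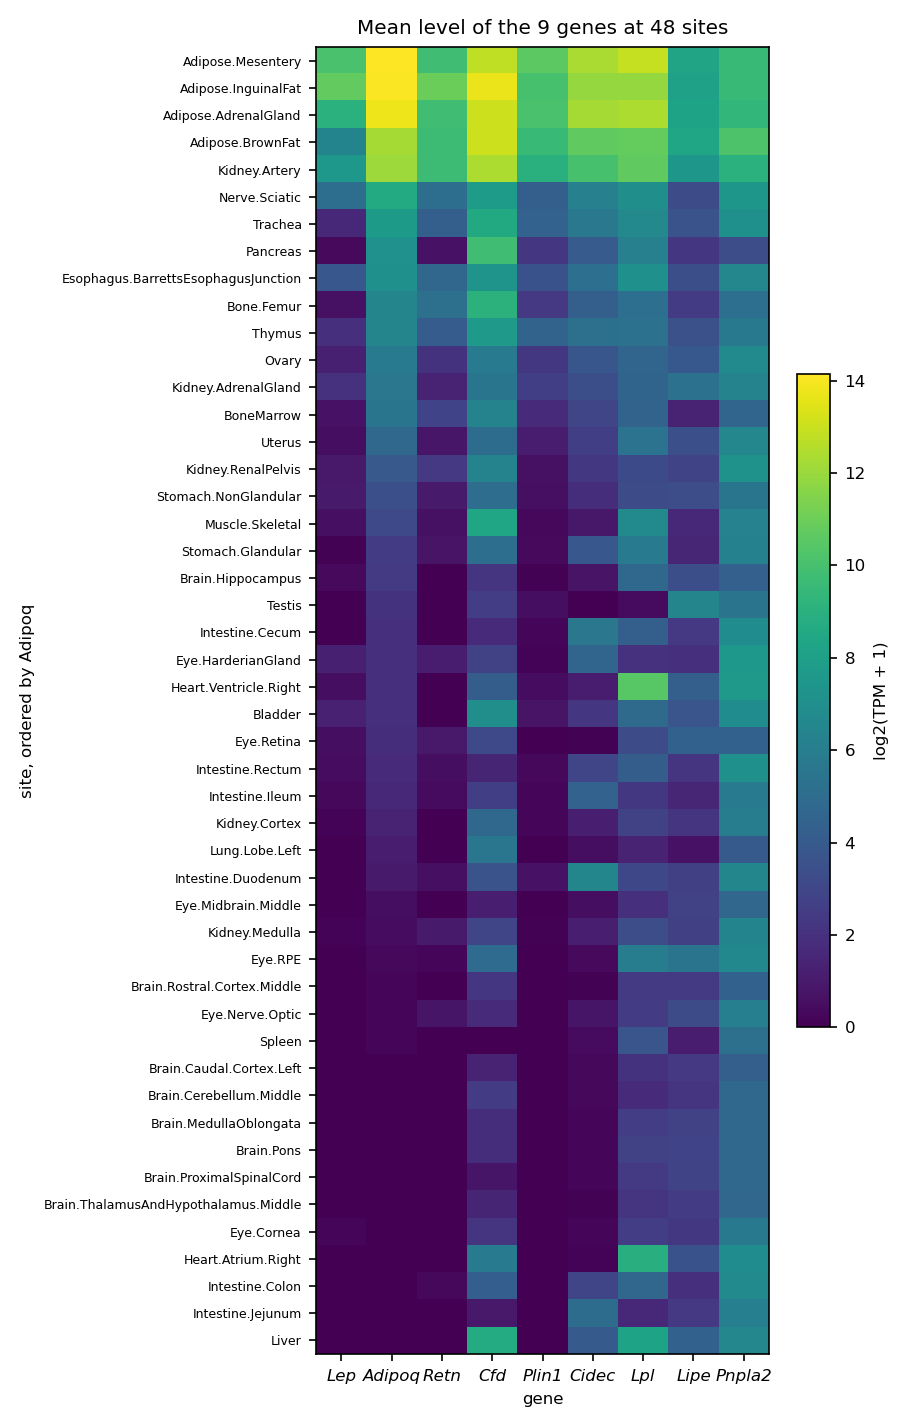
Mean level of each of the 9 genes (columns) at the 48 sites (rows, ordered by Adipoq), as log2(TPM + 1) in colour. The 4 adipose sites and the renal artery form the bright rows at the top for all genes, and Pnpla2 is the gene with some colour at every site.

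The 4 secreted products reached their highest levels in the adipose libraries. Adipoq, encoding adiponectin, was measured at 18145 TPM in mesentery, 17429 in inguinal fat, 14348 in adrenal gland fat and 4844 in brown fat. Over these 4 libraries its level was 13691 ± 6124 TPM (SD, n = 4), and among the other 55 libraries the median was 2.35 TPM. No library outside adipose tissue reached the lowest of the 4, and 16 of the 55 listed Adipoq at 0. The renal artery of T3F came nearest with 4346 TPM, followed by the sciatic nerve of the same animal with 758.9 and pancreas T173F with 281.8.

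Lep, the leptin gene, was the most uneven of the 9 among depots. It stood at 1699 TPM in inguinal fat, 1072 in mesentery, 525.0 in adrenal gland fat and 81.0 in brown fat, a range of 21.0 times. The mean was 844 ± 699 TPM (SD, n = 4). Outside adipose tissue the renal artery held 184.7 TPM, which was above the brown fat library, and sciatic nerve T3F held 67.0 TPM. Of the 55 libraries outside fat 26 listed Lep at 0, and 11 had at least 1 TPM.

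Retn, encoding resistin, was highest in inguinal fat at 2015 TPM, with 907.6 TPM in adrenal gland fat, 881.4 in mesentery and 816.4 in brown fat. The 3 lower depots were close to each other, and the renal artery fell among them with 828.4 TPM. Next in order came femur T426 with 67.4 TPM and sciatic nerve T3F with 65.9, and 27 of the 55 libraries listed the gene at 0. Femur of T3F had 5.28 TPM, so the femur value differed 12.8 times between animals.

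Cfd encodes adipsin, the complement protease factor D, and was the most widely detected of the 4 secreted products. Its adipose levels were 13583 TPM in inguinal fat, 8585 in adrenal gland fat, 8486 in brown fat and 7075 in mesentery, or 9432 ± 2852 TPM (SD, n = 4). Among the other 55 libraries 51 had at least 1 TPM, 29 at least 10 and 13 at least 100, and the spleen alone listed it at 0. After the renal artery with 5336 TPM stood pancreas T173F with 1786, femur T426 with 1006 and liver T426 with 768.0 TPM. In liver T426 Adipoq was listed at 0, and in skeletal muscle T426 Cfd was at 483.4 TPM with Adipoq at 10.1, so these Cfd levels were not accompanied by a like level of Adipoq.

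The droplet coat genes were also highest in the fat depots. Plin1, whose product perilipin coats the droplet and controls lipase access, was at 1528 TPM in mesentery, 1104 in adrenal gland fat, 1037 in inguinal fat and 775.1 in brown fat. Only 5 of 55 other libraries reached 10 TPM of Plin1: renal artery with 496.2, sciatic nerve T3F with 34.6, thymus with 21.8, trachea with 20.6 and the esophageal junction with 11. The gap from the lowest adipose library to the highest of the 54 libraries outside adipose tissue and renal artery was 22.4 times, the widest of the 9 genes.

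Cidec, which lets small droplets pass their fat to larger ones, was at 5316 TPM in mesentery, 4749 in adrenal gland fat, 3812 in inguinal fat and 1632 in brown fat. Unlike Plin1, it was also present along the intestine. Duodenum had 88.4 TPM in T3F and 87.4 in T426, where Adipoq was at 0.722 and 1.31 TPM and Plin1 at 1.27 and 0. Cecum followed with 47.3 TPM, jejunum with 31.3 and ileum with 21.3, while colon and rectum had 6.65 and 6.69 TPM. The 7 intestinal libraries thus ran from 6.65 to 88.4 TPM, with a median of 31.3, against 0 to 1.33 TPM in the 9 brain libraries. The Harderian gland, a lipid-secreting gland behind the eye, had 23.1 TPM of Cidec. Of the brown fat markers there, Ucp1 was at 0.163 TPM, Dio2 at 6.49 and Cidea at 507.9, the last above 3 of the 4 adipose libraries. Among the 47 other libraries the summed brown fat markers reached 5046 TPM, above the highest adipose sum of 4822. A high sum was therefore not confined to adipose libraries. The sum does not show which of the markers carried it.

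Lpl was the lipase with the highest level in fat, at 7579 TPM in mesentery, 5345 in adrenal gland fat, 3864 in inguinal fat and 1761 in brown fat. It was the highest of the 9 genes in the heart, with 1437.5 TPM in right ventricle and 460.5 in right atrium. Skeletal muscle had 158.6 TPM of Lpl in T426 and 53.1 in T3F, less than of Cfd, which was at 483.4 and 154.8. The ventricle was below brown fat by a small margin, and its Adipoq level was 2.71 TPM. In the library labelled liver T3F Lpl stood at 581.1 TPM, in liver T426 at 0.839 and in the library labelled lung T3F at 1.56. The 2 libraries rich in albumin therefore both had little Lpl, and the library rich in surfactant had much.

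Lipe, encoding hormone-sensitive lipase, differed least among depots, with 322.0 TPM in brown fat, 308.4 in mesentery, 291.9 in adrenal gland fat and 268.8 in inguinal fat. The mean was 297.8 ± 22.9 TPM (SD, n = 4), a range of 1.20 times. It was above 0 in all 59 libraries. Beyond the renal artery, with 175.3 TPM, the next levels were in testis T424 with 85.7, retinal pigment epithelium with 43.3, the library labelled liver T3F with 39.7 and adrenal gland with 38.2.

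Pnpla2 encodes adipose triglyceride lipase, the enzyme of the first step of fat breakdown, and was the least restricted member. It was at 1182 TPM in brown fat, 730.5 in mesentery, 726.7 in inguinal fat and 654.4 in adrenal gland fat. Of the 55 other libraries 54 had at least 10 TPM, with a median of 63.6 and pancreas T3F lowest at 5.43. Renal pelvis T173F had 196.3 TPM, right ventricle 194.3, the Harderian gland 188.4 and sciatic nerve 184.6 and 167.4 in its 2 animals.

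Summed over the means of the 48 sites, the 4 adipose sites held 93.1% of the TPM of Lep, 90.8% of Cidec, 90.7% of Adipoq, 88.2% of Plin1, 82.5% of Retn, 80.4% of Cfd, 79.0% of Lpl, 66.0% of Lipe and 47.5% of Pnpla2. The shares fell from the hormones and coat genes to the 2 intracellular lipases.

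**Figure D2:**
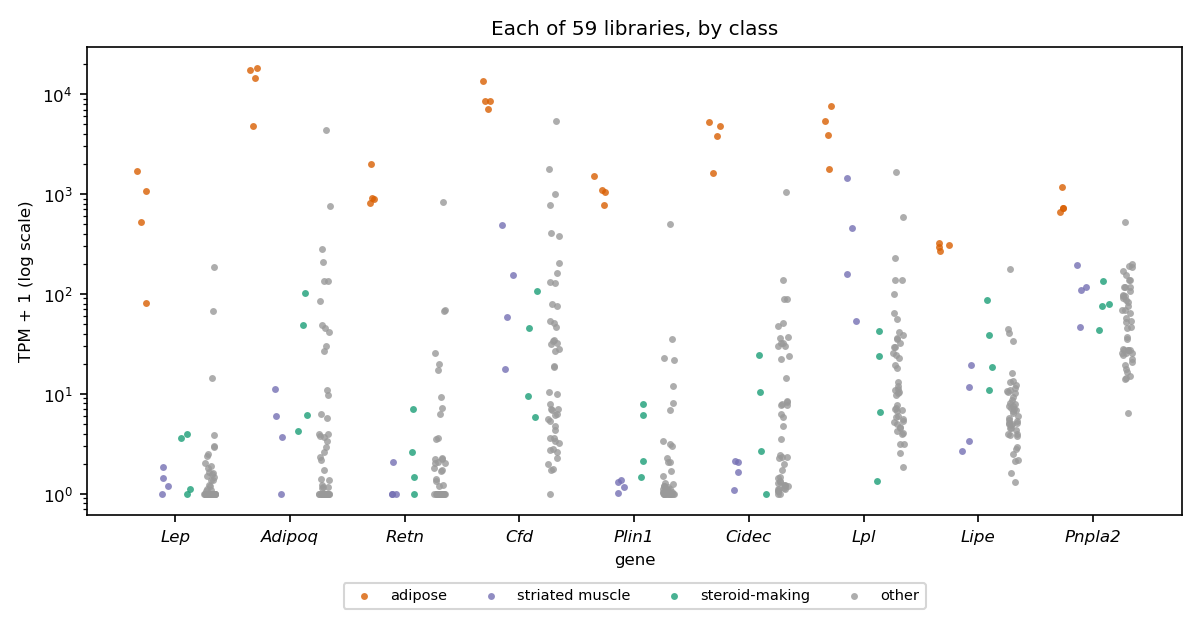
Level of each gene in every library, as TPM + 1 on a log axis, with 1 point per library and colours for adipose, striated muscle, steroid-making and other libraries. The adipose points lie at the top, except that the renal artery is above brown fat for Lep and Retn. The artery is the highest grey point for each gene. For Lpl the highest striated muscle point, at 1437.5 TPM, lies just below the lowest adipose point, at 1761 TPM.

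The order of the depots differed between genes. Brown fat had the lowest level of 6 members, namely Lep, Adipoq, Retn, Plin1, Cidec and Lpl, and the highest level of Lipe and Pnpla2. Inguinal fat exceeded brown fat 21.0 times for Lep, 3.60 times for Adipoq, 2.47 for Retn, 2.34 for Cidec, 2.19 for Lpl, 1.60 for Cfd and 1.34 for Plin1. Brown fat exceeded inguinal fat 1.63 times for Pnpla2 and 1.20 times for Lipe. The marker Ucp1 was at 3399 TPM in brown fat, 496.5 in inguinal fat, 92.2 in adrenal gland fat and 0.330 in mesentery, and Cidea had the same order with 1127, 175.7, 54.0 and 16.9 TPM, as did Dio2 with 122.8, 13.9, 8.10 and 2.17. The other brown fat markers did not: Elovl3 was highest in adrenal gland fat (494.0 TPM), then mesentery (261.4), brown fat (168.4) and inguinal fat (126.4), and Ppargc1a was at 4.24 TPM in brown fat, 3.83 in adrenal gland fat and 1.31, its lowest level, in inguinal fat. With 1 library per depot these differences have no test.

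The renal artery library had fat genes at a large share of the level in fat. Its Retn level was 71.7% of the adipose mean, Pnpla2 63.4%, Lipe 58.9%, Cfd 56.6%, Plin1 44.7%, Lpl 35.8%, Adipoq 31.7%, Cidec 26.9% and Lep 21.9%. Ucp1 was at 1152 TPM, Cidea at 404.6 and Dio2, the brown fat deiodinase, at 84.1, all 3 between the inguinal and the brown fat libraries. The 5 brown fat markers summed to 1816 TPM, a sum that reached 5046 TPM elsewhere outside adipose libraries. Elovl3 and Ppargc1a are part of this sum, and their levels in the artery are not given here. The 3 levels above therefore do not place the whole marker set between inguinal and brown fat. Smooth muscle actin, Acta2, was at 707.2 TPM, compared with 15113 TPM in bladder, and the summed smooth muscle markers reached 943.8 TPM against up to 35081 TPM elsewhere. The part of fat cells in these levels was not tested. For Plin1 the artery exceeded the highest of the 54 remaining libraries 14.4 times, and for Retn 12.3 times.

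**Figure D3:**
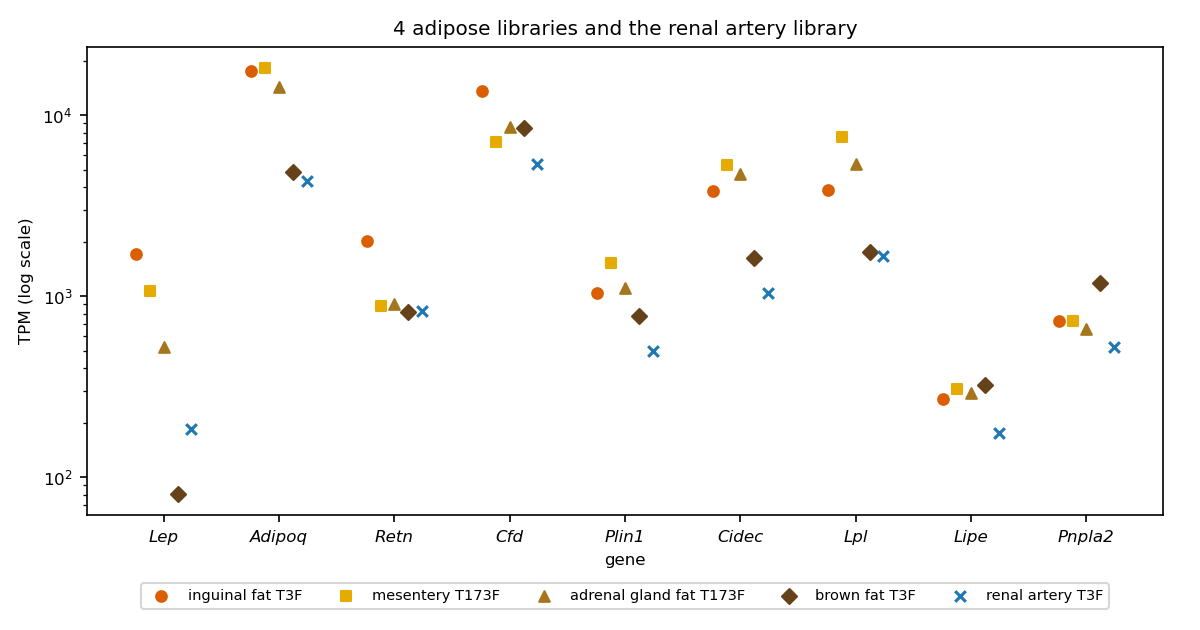
TPM on a log axis of the 9 genes in the 4 adipose libraries and the renal artery library, 1 symbol per library. Brown fat is lowest for 6 genes and highest for Lipe and Pnpla2, and the artery lies below the adipose libraries except for Lep and Retn, where it is above brown fat.

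Adipose libraries were then compared with the 46 libraries outside adipose tissue, striated muscle and steroid-making organs, in a fit of 58 libraries in which the retinas of both eyes of T3F counted as 1 library. All 9 members were higher in adipose tissue by edgeR's quasi-likelihood test with Benjamini-Hochberg adjustment over 17671 genes, at an adjusted p below 0.05 and a log2 fold change of at least 1. Of all genes tested, 2.6% were called higher and 0.685% lower. The largest changes were those of Lep (log2 fold change 7.11 ± 1.17, SE, adjusted p = 2.87e-05), Cidec (6.50 ± 1.05, 2.04e-05) and Adipoq (6.44 ± 1.37, 0.00177). Plin1 followed with 6.44 ± 1.33 (adjusted p = 0.00119), Lpl with 5.79 ± 0.87 (3.87e-06), Retn with 5.56 ± 1.26 (0.00392) and Lipe with 4.93 ± 0.58 (1.28e-08). Cfd, at 4.60 ± 1.20 (adjusted p = 0.0172), and Pnpla2, at 3.67 ± 0.44 (2.04e-08), had the lowest fold changes, and Pnpla2 and Lipe had the smallest SE of the 9.

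The median log2 fold change was 5.79 over the 9 members and -0.61 over all genes tested, and from that common shift the members stood 4.28 (Pnpla2) to 7.72 (Lep) higher. DESeq2 called 560 genes higher and 2804 lower where edgeR called 459 and 121, and limma on log2(TPM + 1) called 319 and 35, with a median of -0.28 over its genes. The renal artery belongs to the 46 libraries, and without it (an alternative chosen after seeing the data) the log2 fold changes ran from 3.85 (Pnpla2) to 8.59 (Lep), with 8.47 for Plin1 and 7.08 for Retn. With a level fitted for each site and averaged within a class they ran from 3.98 (Pnpla2) to 13.17 (Adipoq). The spread in that fit left out differences among sites. The Cfd call was lost without brown fat (4.39, adjusted p = 0.0909) or without inguinal fat (4.44, 0.0617), and the Retn call with DESeq2 (5.40, 0.0602). Libraries of 1 animal entered as separate units, so the p-values measure the spread among libraries of few animals and different organs.

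Other genes of fat metabolism were read from 7 lists with 65 tested genes, of which 26 were higher in adipose tissue, where 2.6% of all genes were. In triglyceride synthesis 5 of 7 rose, with a list median of 3.28: Gpd1, which makes the glycerol backbone (5.18 ± 0.76, adjusted p = 2.53e-06), Dgat2, which adds the last fatty acid (4.74 ± 0.83), and Agpat2 (3.28 ± 0.80) were the most abundant. Dgat1 had 1.29 ± 0.80 and Mogat2, an intestinal enzyme, -2.12 ± 2.03, and neither was called. In lipolysis and its control 4 of 8 rose (median 2.72), among them G0s2, the inhibitor of the Pnpla2 product (3.36 ± 0.84), the protein kinase A subunit Prkar2b (3.79 ± 0.61) and the adrenergic receptor gene Adrb3 (4.94 ± 0.91). Mgll (1.90), the Pnpla2 co-activator Abhd5 (-0.19), the glycerol channel Aqp7 (2.82) and Acvr1c (2.62) did not pass the test. Abhd5, Mgll and G0s2 were highest of all in the Harderian gland, at 3932, 4511 and 9861 TPM.

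Of 11 genes for droplet coat and formation 5 rose (median 0.95), of which Cav1 (3.36 ± 0.68), Plin4 (4.56 ± 0.80) and Cidea (4.26 ± 1.01) were the most abundant in fat. In the lipoprotein lipase and fatty acid uptake list 4 of 12 rose, with a median of -0.03: Fabp4, the fatty acid binding protein of fat cells (5.24 ± 0.99), Gpihbp1, which anchors lipoprotein lipase on capillaries (3.94 ± 1.04), and the transporter gene Cd36 (4.07 ± 0.91) were the most abundant. Of 9 fat cell transcription factors 4 rose (median 2.14), with Cebpa (3.23 ± 0.76), Pparg (3.70 ± 0.86) and Srebf1 (2.44 ± 0.45) most abundant. Cebpb (1.89), Cebpd (-0.01), Klf15 (1.31), Ebf2 (2.14) and Zfp423 (1.41) were not called.

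Among 12 other adipokines Nampt (2.07 ± 0.46) and Angptl4, an inhibitor of lipoprotein lipase (2.74 ± 0.80), rose, and the list median was 1.59. Of 6 adipokine receptors Cmklr1, the chemerin receptor (3.21 ± 0.60), and Adipor2, an adiponectin receptor (1.88 ± 0.56), rose. The adiponectin-binding cadherin Cdh13 (1.84), Adipor1 (-0.04), the leptin receptor Lepr (-2.66) and C3ar1 (0.48) were not called. Lepr was at 0.0625 to 2.05 TPM in the 4 adipose libraries and reached 83.3 TPM in uterus.

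**Figure D4:**
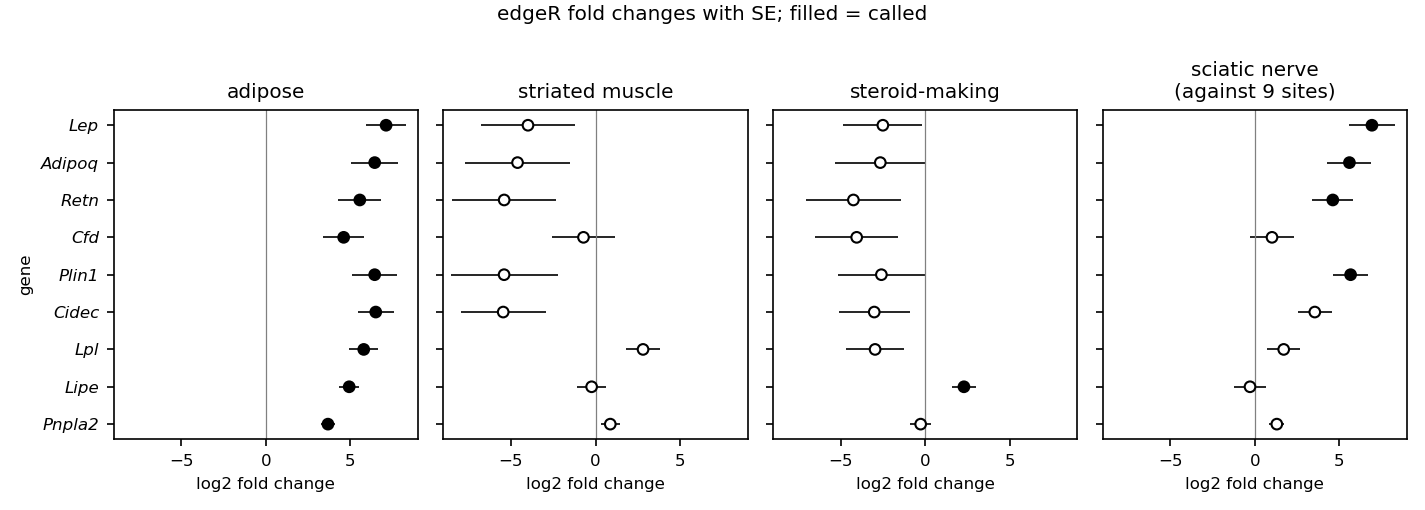
Log2 fold change with SE of the 9 genes in 4 comparisons by edgeR, with filled points for called genes. All 9 are filled for adipose libraries, none for striated muscle, Lipe alone for steroid-making organs, and Lep, Adipoq, Retn and Plin1 for sciatic nerve.

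The same fit compared 4 striated muscle libraries, 2 of heart and 2 of skeletal muscle, with the same 46 libraries, so this contrast and those of adipose and steroid-making organs share their reference. By edgeR 0 of 9 members were called, where 4.85% of all genes were called higher and 1.22% lower; at an unadjusted p below 0.05 there was 1 higher and 1 lower. Lpl had a log2 fold change of 2.81 ± 1.0 (adjusted p = 0.0800) and Pnpla2 0.87 ± 0.56 (0.266), and these were the 2 members with a positive value. Cidec had -5.46 ± 2.52 (adjusted p = 0.160), Plin1 -5.41, Retn -5.40, Adipoq -4.61, Lep -3.99, Cfd -0.71 and Lipe -0.23. The member median was -3.99 and that of all genes -0.69. The negative values depended on the fit. With a mean per site Cfd had 2.42, Lipe 0.70, Plin1 0.43 and Lep 0.21. Adipoq (-0.73), Retn (-1.84) and Cidec (-2.36) stayed negative there, and none of these was called.

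Lpl was called higher in limma (4.10, adjusted p = 0.0139), without the renal artery (3.56, 0.00292) and without renal artery and sciatic nerve (3.64, 0.00260). It was also called without the libraries labelled lung T3F, liver T3F and pancreas T173F (3.12, 0.0288). With a mean per site Lpl (5.16, 1.29e-05) and Pnpla2 (1.45, 0.00917) were called, in a fit whose spread left out differences among sites. DESeq2 called Plin1 (-5.50, adjusted p = 0.0224) and Cidec (-5.49, 0.00197) lower, and split its calls into 964 higher and 2674 lower where edgeR had 857 and 215. Of the 65 listed genes 6 were higher in striated muscle and 3 lower, where 4.85% and 1.22% of all genes were. The droplet genes Plin4 (3.69 ± 0.84), Fitm2 (2.51 ± 0.45) and Fitm1 (5.79 ± 1.06) rose and Bscl2 fell by 1.47 on the log2 scale, and Adipor1 (1.33 ± 0.34) and Cdh13 (2.98 ± 0.70) rose among receptors. Plin4 thus rose in both fat and muscle, and Angptl4, called higher in fat, fell by 5.33 in muscle.

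Steroid-making organs hold cholesterol esters in droplets, which hormone-sensitive lipase can split. Their 4 libraries had Lipe at 85.7 TPM in testis T424, 38.2 in adrenal gland T173F, 17.7 in ovary T3F and 9.83 in ovary T173F. Against the 46 libraries Lipe was 2.29 ± 0.69 higher on the log2 scale (edgeR, adjusted p = 0.0351) and was the single member called, where 4.69% of all genes were called higher and 0.181% lower. Without testis the value was 0.36 (adjusted p = 0.887), and in limma 2.06 (0.118). It was 0.39 (0.885) without the libraries of T426 and T424 and 0.40 (0.957) with animal as a block. T424 gave testis alone, so these 2 settings also took testis out of the comparison. The call thus rested on the testis library, which has 678819 counts. In that library 637 counts fell on Lipe. The steroid synthesis genes were low there, with Star at 25.4 TPM, Cyp11a1 at 13.0 and Cyp11b1 at 0. Adrenal gland T173F had 10796, 2780 and 14917 TPM of these genes. The summed sperm cell markers of the testis library were 25790 TPM. The part of steroid-making cells in its Lipe level was not tested.

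Pnpla2 had -0.27 (adjusted p = 0.815), and Lep -2.50, Adipoq -2.65, Plin1 -2.59, Lpl -2.96, Cidec -3.01, Cfd -4.05 and Retn -4.24 were not called either. The member median was -2.65 and that of all genes -0.39. The negative member values depended on the fit. With a mean per site Plin1 had 3.81, Adipoq 3.73, Lep 0.98, Cfd 0.46, Pnpla2 0.28 and Retn 0.028. Lpl (-1.46) and Cidec stayed negative there, and none of these was called. Without renal artery and sciatic nerve Lep had 0.40 and Plin1 -0.28, and the remaining negative values kept their sign. DESeq2 called Cfd lower (-4.38, adjusted p = 0.0424), and its calls were 721 higher and 1001 lower against 829 and 32 in edgeR. Of 65 listed genes 2 were called higher, where 4.69% of all genes were. These were Lipg, the endothelial lipase (5.31 ± 0.75), and Bscl2, the seipin gene (1.66 ± 0.35). The highest library outside fat was ovary T3F for Lipg, at 770.8 TPM, and testis T424 for Bscl2, at 297.8 TPM. Whether the Bscl2 and Lipg calls hold without testis was not tested.

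Some libraries of T426 carried sperm cell genes outside the testis. At the 7 sites shared by T426 and T3F, Lipe was higher in T426 at 4 and lower at 3. In retina Lipe was at 32.5 TPM in T426 and at 6.91 and 7.61 in the retinas of T3F, and in hippocampus at 15.1 and 4.03 TPM. The summed sperm markers were 29446 TPM in retina T426 and 13945 in hippocampus T426, against 25790 in testis and 104.3 to 121.3 in the T3F libraries of these sites. Akap4, a gene of the sperm tail, was at 2528 TPM in retina T426, 1346 in hippocampus T426 and 3256 in testis, and at 0 in the T3F libraries. Femur T426 had a sperm marker sum of 5741 TPM with Lipe at 6.29, against 2.91 in T3F. Sciatic nerve T426 had a sum of 640.4 TPM, and its Lipe level, 4.98 TPM, was below the 12.1 of T3F. Liver, duodenum and skeletal muscle of T426 had sums of 6.61 to 22.8 TPM, with Prm2 and Akap4 at 0. The part of these cells in the Lipe values was not tested.

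At 10 sites libraries of 2 animals allowed a test among organs outside fat. Of the 9 members 7 differed among the sites by edgeR's joint test with Benjamini-Hochberg adjustment, compared with 41.4% of 17564 genes: Plin1 (adjusted p = 0.0119), Cfd (0.0178), Cidec (0.0199), Pnpla2 (0.0220), Retn (0.0269), Adipoq (0.0359) and Lpl (0.0404). Lep (0.0837) and Lipe (0.648) did not pass. Limma on log2(TPM + 1) called 1 of the 9, Pnpla2, and with animal as a block Lep passed as well (0.0496).

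These joint calls depended on single libraries. The Lpl call was lost in 14 of 20 cases in which 1 library was left out, with an adjusted p of up to 0.0875, and kept only without either liver library, either sciatic nerve library, ovary T173F or pancreas T3F. Adipoq was lost in 7 cases, without either duodenum library, either skeletal muscle library, sciatic nerve T3F, pancreas T173F or the library labelled liver T3F, with up to 0.0796. Pnpla2 was lost without either hippocampus library (0.0946 and 0.0890) or sciatic nerve T3F (0.0510), Retn without femur T426 (0.132) and Cidec without retina T3F (0.0519).

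The spread between the 2 animals of a site was often as wide as that between sites. In the order of site means, neighbouring sites overlapped in 8 or 9 of 9 pairs for each member. Pnpla2 was the steadiest, with a median difference of 1.84 times between animals and a highest of 4.44 times, and Cidec in duodenum differed 1.01 times. Both duodenum libraries exceeded both libraries of 8 of the other 9 sites for Cidec, and both sciatic nerve libraries did so for Pnpla2. Cfd differed most at pancreas, with 1786 TPM in T173F and 4.29 in T3F, and Lpl at liver, where 1 library was at odds with its label.

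**Figure D5:**
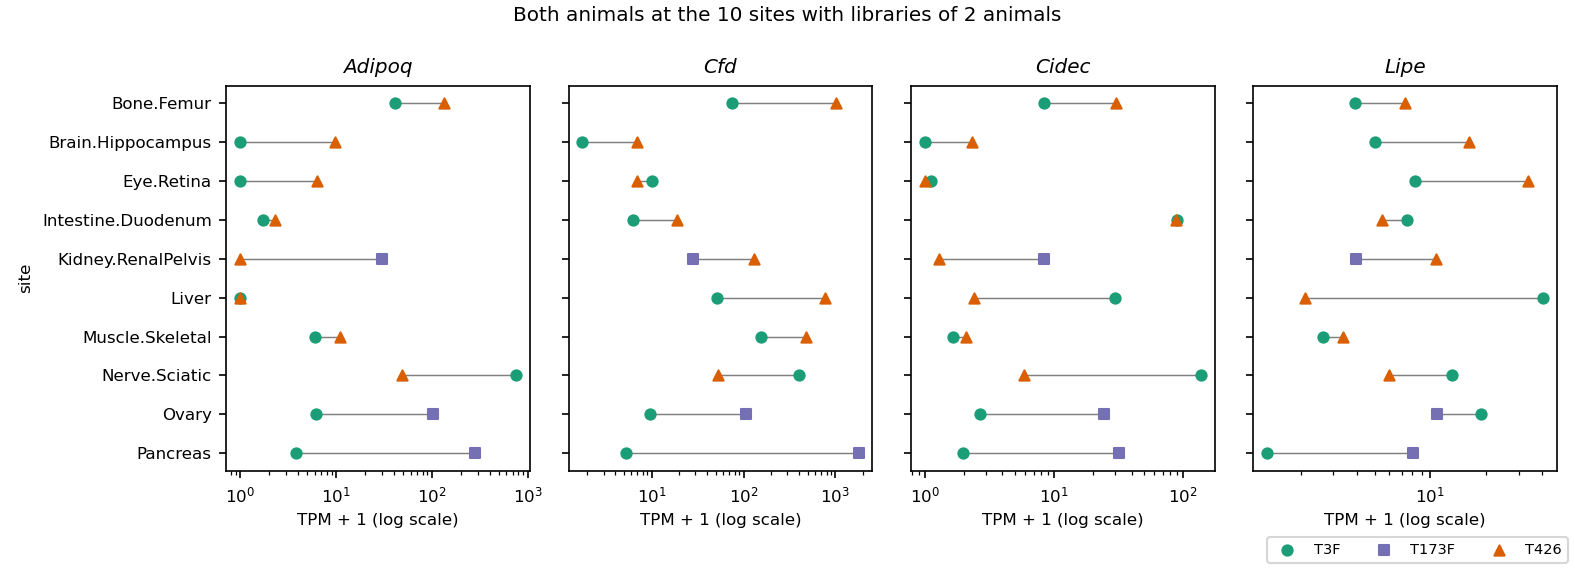
TPM + 1 on a log axis of Adipoq, Cfd, Cidec and Lipe at the 10 sites with libraries of 2 animals, with symbols for the animal and a line joining the pair. Duodenum has overlapping symbols for Cidec near 88 TPM, and pancreas and sciatic nerve have long lines for Adipoq.

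Sciatic nerve was the replicated site with the most Adipoq, and its 2 libraries differed greatly. Adipoq was at 758.9 TPM in T3F and 48.2 in T426, Lep at 67.0 and 0.588, Retn at 65.9 and 2.51, and Plin1 at 34.6 and 1.99. Cidec was at 136.7 and 4.90 TPM, Cfd at 403.3 and 52.4, Lpl at 229.2 and 31.0, and Lipe at 12.1 and 4.98, whereas Pnpla2 was at 184.6 and 167.4. The T426 values of Lep and Retn rest on 1 and 2 counts. All 8 fat cell markers were present in T3F and 7 in T426, summing to 1710 and 647 TPM. The part of fat cells in the nerve values was not tested.

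Compared with the average over the remaining 9 sites, 4 members were called higher in sciatic nerve by edgeR, compared with 4.94% of all genes called higher and 0.125% lower: Lep (log2 fold change 6.93 ± 1.36, adjusted p = 0.00900), Plin1 (5.66 ± 1.04, 0.00488), Adipoq (5.60 ± 1.30, 0.0219) and Retn (4.61 ± 1.20, 0.0463). Cidec had 3.55 ± 0.99 (0.0555), Lpl 1.71 ± 0.96, Pnpla2 1.30 ± 0.44 (0.137), Cfd 1.02 ± 1.33 and Lipe -0.28 ± 0.94. The member median was 3.55, and that of all genes -0.08. Without the T3F nerve the values were 0.90 for Lep, 2.34 for Adipoq, 0.66 for Retn and 2.29 for Plin1, each with an adjusted p of 1. DESeq2 called Plin1 alone of the 9, limma called 0 with 5 higher at an unadjusted p below 0.05, and with animal as a block Retn was lost (adjusted p = 0.0756) and Cidec gained (4.40, 0.0189). Retn was lost in 14 of 20 cases with 1 library left out, and Adipoq also without duodenum T3F (5.54, 0.0550) or skeletal muscle T3F (5.58, 0.0512). Without the libraries labelled liver T3F and pancreas T173F Cidec (4.04, 0.0247), Lpl (2.67, 0.0171) and Pnpla2 (1.32, 0.0342) were called and Retn was not (4.51, 0.0624). DESeq2 called 942 genes higher and 372 lower, against 867 and 22 in edgeR.

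The lists showed other genes in nerve, where 4.94% of all genes were called higher. Of 64 tested 8 were higher, among them the adipokine genes Sfrp5 (8.24 ± 0.62), Rarres2 (2.67 ± 0.57) and Adm (2.37 ± 0.58), the leptin receptor Lepr (3.69 ± 0.67), Cav1 (3.54 ± 0.77), Fitm1 (3.33 ± 0.59) and the factors Ebf2 (7.52 ± 0.70) and Zfp423 (3.17 ± 0.65). For Rarres2, Sfrp5, Ebf2 and Zfp423 the highest library outside fat was sciatic nerve T426, with 604.5, 1064, 188.2 and 59.6 TPM, which is the nerve library that had less of the members.

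In 15 libraries outside adipose tissue Adipoq reached 10 TPM, and the ratio of the other members to it can be set beside the 4 depots. In fat, Lep was 1.67% to 9.75% of Adipoq, Plin1 5.95% to 16% and Cidec 21.9% to 33.7%. Of the 15 libraries 8 fell within the depot range for Lep, 5 for Plin1 and 6 for Cidec, and those outside were mostly below it, 6 of 7, 9 of 10 and 8 of 9. The 6 below for Lep held 0.359 (femur T3F) to 1.97 TPM (trachea) of it, so their ratios rest on low levels. For Cfd 8 were within and 7 above, for Lpl 5 within and 10 above, for Lipe 6 within and 9 above and for Pnpla2 4 within and 11 above. Retn had 6 within, 5 above and 4 below, with femur T426 highest at 50.4% of Adipoq. Of those below, pancreas T173F and skeletal muscle T426 listed Retn at 0. In femur the summed macrophage markers were 1089 TPM in T426 and 2918 TPM in T3F, with 1 library of each animal. The part of macrophages in the Retn levels was not tested.

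Over the 48 site means, the genes most like Adipoq by Pearson correlation of log2(TPM + 1) were Plin1 (0.956), Retn (0.945), Lep (0.910), Cfd (0.882) and Cidec (0.872), followed by the amino acid transporter gene Slc36a2 (0.856), Tusc5 (0.842), Otop1 (0.839), the carbonic anhydrase gene Car3 (0.831) and Pnpla5 (0.828). Plin1 was the first gene for Lep (0.958), Retn (0.973) and Cidec (0.899). Cfd had Adipoq, Car3 (0.853) and Plin1 (0.850) nearest. The lipases had other neighbours: Lpl was most like Fabp4 (0.868), Meox2 (0.859) and Cfd (0.834), Lipe like Tusc5 (0.835), Irs3 (0.815) and Plin1 (0.801), and Pnpla2 like Ehd2 (0.870) and the mitochondrial fatty acid oxidation genes Ech1 (0.83) and Cpt2 (0.828). These points share animals and libraries and 4 adipose sites stand far from the rest, so the values are descriptions.

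Without the 4 adipose sites, every pair of members had a lower correlation over the 44 other sites. The 6 pairs among Lep, Adipoq, Retn and Plin1 kept 0.82 (Lep and Adipoq) to 0.93 (Retn and Plin1). Pairs with Cidec or Cfd were lower, as for Adipoq with Cidec (from 0.87 to 0.71), Lep with Cidec (0.87 to 0.67), Lep with Cfd (0.79 to 0.62) and Cfd with Cidec (0.78 to 0.58). Among the lipase pairs, Cfd with Lpl went from 0.83 to 0.70, Adipoq with Lipe from 0.72 to 0.37, Adipoq with Pnpla2 from 0.67 to 0.35, and Cidec with Lipe from 0.65 to 0.21.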

How the data were processed

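Expected counts per gene, which need not be whole, and TPM were deposited by the authors in 2 tables of the whole series. RSEM and Bowtie 0.12.8 were used, per the submitters' processing notes, which give RSEM without a version. Genome build and annotation: not given in the sources used here. Rows carry gene symbols with mouse Ensembl identifiers, and 54.76% of the expected counts were whole. All 9 symbols, and 76.43% of all symbols, were found in RefSeq's gene table for the species. A count of 0 allows up to 3 counts, or 0.0726 CPM in the deepest library and 4.42 CPM in testis; such limits cover counting error only.

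Libraries were grouped by the site and animal in their titles, and 0 columns lacked a sample. Expected counts were rounded and tested in R 4.3.3 by edgeR 4.0.16, quasi-likelihood test (TMM scaling, filterByExpr, Benjamini-Hochberg adjustment over all genes tested). Calls needed an adjusted p under 0.05 and, in contrasts, a log2 fold change of 1 or more in either direction. SE is the log2 fold change divided by the square root of F. The class fit used 58 libraries in 4 classes (4 adipose, 4 striated muscle, 4 steroid-making, 46 other) and the site fit 20 libraries of 10 sites. Both retinas of T3F entered as 1 summed library. Alternatives were DESeq2 1.42.0, limma 3.58.1 on log2(TPM + 1) for genes with 1 TPM or more in some library, no low-count filter, animal as a block, a mean per site, and libraries left out. The mean per site fitted a level for each site and averaged these within a class. Its p-values measure the spread between animals at the 10 replicated sites, not the spread among sites.

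On simulated data, 49.5% of 200 genes changed 16-fold and 87% of those changed 64-fold were recovered in the adipose comparison (17598 genes), and 63.5% and 88.5% in the nerve comparison (17081 genes). Libraries of different sites are paired where they come from the same animal: deviations from the site means had a median correlation of 0.08 over 67 pairs of the same animal (-0.10 to 0.81) and -0.05 over 113 pairs of different animals (-0.81 to 0.45). The 2 libraries of a site have opposite deviations, so correlations of the first set recur with reversed sign in the second. The second set is thus no independent reference.

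The members, the 7 gene lists and the 15 marker lists were chosen with earlier results of these data known. All members are named in each comparison. Of a list, up to 3 called genes with the highest mean TPM in adipose libraries are named, and the rest where 5 or fewer were not called; Abhd5, Mgll and G0s2 in the Harderian gland, the remaining called genes in nerve and the sperm and steroid genes were named after their values were seen. Likeness is the Pearson correlation of log2(TPM + 1) over 48 site means, for genes with 10 TPM at some site.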

Additional observations from a re-analysis of the deposited data

Results flagged for a closer look

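In groups of 4 libraries, 27 combinations of gene and class were examined for a library far from the rest on the log2(TPM + 1) scale, and 2 were found; chance alone gives about 1 in 20. Both concern Retn. In adipose tissue, inguinal fat T3F stood at 2015 TPM above 3 depots of 816.4 to 907.6 TPM, and the gap to the next library was 0.883 of the whole range. In striated muscle, skeletal muscle T3F had 1.09 TPM and the other 3 libraries listed Retn at 0, so the gap was the whole range, a value of 1.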

How the results depend on the processing

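No member called in the edgeR tests of the report changed sign under the alternatives run; for list genes only the edgeR fit is given. Members called only under an alternative could turn. Cidec in nerve, 4.40 with the block, was -0.49 without nerve T3F. Plin1 in striated muscle, -5.50 with DESeq2, was 0.43 with a mean per site. Cfd in steroid-making organs, -4.38 with DESeq2, was 0.46 with a mean per site. The numbers of genes called moved most. In the adipose comparison 580 genes were called, against 3364 with DESeq2, 354 with limma, 936 with lung T3F, liver T3F and pancreas T173F (as labelled) left out, and 1884 with a mean per site. Leaving out 1 library at a time gave 228 (without brown fat) to 630 genes and 8 to 9 members. For striated muscle 1072 genes became 3638 with DESeq2, 438 with limma and 672 without T426 and T424, and 602 (without skeletal muscle T426) to 1165 with 1 library left out. The members called higher there were 0, but 1 with limma, 1 without the 3 doubtful libraries, 1 without sciatic nerve and renal artery, 2 with a mean per site and 0 to 1 (without renal artery, chosen after seeing the data) with 1 library left out, and 2 were lower with DESeq2. For steroid-making organs 861 genes became 1722 with DESeq2, 248 with limma and 194 without T426 and T424, and 178 (without testis) to 945 with 1 library left out. The 1 member higher became 0 with limma and without T426 and T424, and 0 to 1 with 1 library left out, and 1 was lower with DESeq2. At the 10 sites jointly 7271 genes became 10951 with DESeq2 and 12487 with limma, where 1 member was called, and 5667 to 12521 (without pancreas T3F), with 5 to 7 members, with 1 library left out. For sciatic nerve 889 genes became 2150 without liver T3F and pancreas T173F as labelled, and 272 (without nerve T3F) to 1940 (without pancreas T3F) with 1 library left out. The 4 members higher became 1 with DESeq2, 0 with limma and 0 to 6 with 1 library left out. With animal as a replicate block the steroid-making comparison had 152 genes and 0 members called. T424 gave testis alone, so the block took that library out of the comparison. With the block Lep passed at the 10 sites, and in nerve Retn was lost and Cidec gained. The block changed no other member's call. Of the 10 genes most like Adipoq, 8 were shared with a pseudocount of 0.1, 10 with a filter at 1 TPM and 8 without the adipose sites. The causes were not tested. Depth limits the T426 and T424 libraries most: a gene listed at 0 in testis may lie at up to 4.42 CPM.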
